A study of Mus musculus with 18 samples.

Results

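The genes described here are 40 identity and signaling genes of microglia, the resident macrophages of the spinal cord. They were chosen by name and not by a cutoff on their values, but with earlier results of these data known. They were taken as the rows of the count table whose Ensembl ID carries one of the 40 symbols. This gave 41 rows of 55573, since 2 rows carry the symbol Itgam. The row that the GENCODE annotation names Itgam was used, and the other is described on its own, so that 40 genes were followed. The tissue was the ipsilateral dorsal horn of the spinal cord (DHSC), which receives the input of pain-sensing nerve fibers from the hindpaw. All mice were adult C57BL/6J animals, and all received 2% formalin into a hindpaw and were sampled 2 h later. The groups held 6 males, 6 females labelled F1/proestrus and 6 labelled F2/metestrus, where F1 and F2 name females with a short and a long quiet interval between the phases of formalin-evoked pain behavior, and proestrus and metestrus are stages of the estrus cycle. Since F1 and proestrus, and likewise F2 and metestrus, go together in the labels, behavior and cycle stage cannot be told apart. The labels used here give no uninjected group, so the response of these genes to formalin was not measured.

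Microglia sense nucleotides released by damaged or active cells through purinergic receptors, sense the neuronal chemokine fractalkine through Cx3cr1, and engulf debris. Several of their surface receptors, Trem2 and the Fc receptors among them, have no signaling tail and pair with the adaptors Tyrobp (DAP12) or Fcer1g (the Fc receptor gamma chain). These adaptors carry an immunoreceptor tyrosine-based activation motif (ITAM) that, once phosphorylated by Src-family kinases such as Lyn, recruits the kinase Syk and, further down, Btk, Plcg2 and Vav1. The lineage is set up by the transcription factor PU.1, the product of Spi1, together with Irf8, while Sall1 keeps the microglial program apart from that of other macrophages.

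Because PU.1 binds a purine-rich core in the promoters of many myeloid genes, the 250 bases before the transcription start were read from the RefSeq promoter table (build GRCm38.p6), which held 32 of the 40 genes, some with several starts. P2ry6, Gpr34, Tmem119, Selplg, Spi1, Tyrobp, Lyn and Bin2 were not among them. The core GAGGAA, searched on both strands, occurred in 17 of the 32 genes (53.1%), beside 25.9% of all 27025 genes in the table. The longer form GAGGAAGT, which contains the core, occurred in Hpgds, Inpp5d and Vav1 (9.38%, beside 2.79% of all genes). The form AGGAAGTG, which overlaps the previous one, occurred in Apbb1ip, Fcrls, Hpgds and Vav1 (12.5%, beside 3.62%). A match of letters does not show binding, and GAGGAA is short enough to occur often by itself. The promoters of 4 genes that recur in the comparisons below are shown on the strand of the gene, with GAGGAA or its reverse complement in capitals: Itgam, which holds the core at 2 positions, Ctss and Vav1, which hold it at 1, and Siglech, which has no match in this window. Their positions are chr7:128062390-128062639 (plus strand) for Itgam, chr3:95526536-95526785 (plus strand) for Ctss, chr17:57278850-57279099 (plus strand) for Vav1 and chr7:55767934-55768183 (plus strand) for Siglech.
Itgam: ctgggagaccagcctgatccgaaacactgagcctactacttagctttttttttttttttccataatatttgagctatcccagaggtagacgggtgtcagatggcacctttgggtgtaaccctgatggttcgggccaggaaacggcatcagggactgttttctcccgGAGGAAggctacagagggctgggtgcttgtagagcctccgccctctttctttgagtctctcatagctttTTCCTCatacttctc
Ctss: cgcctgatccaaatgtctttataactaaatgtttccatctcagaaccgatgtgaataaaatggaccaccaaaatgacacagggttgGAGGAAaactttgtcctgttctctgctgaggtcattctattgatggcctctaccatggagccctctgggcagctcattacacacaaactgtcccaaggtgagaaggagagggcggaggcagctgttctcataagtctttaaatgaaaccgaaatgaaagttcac
Vav1: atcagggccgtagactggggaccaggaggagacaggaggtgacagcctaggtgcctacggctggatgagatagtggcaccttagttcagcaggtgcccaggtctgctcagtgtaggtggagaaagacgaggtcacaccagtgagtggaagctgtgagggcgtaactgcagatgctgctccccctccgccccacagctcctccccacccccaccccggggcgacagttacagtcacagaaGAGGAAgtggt
Siglech: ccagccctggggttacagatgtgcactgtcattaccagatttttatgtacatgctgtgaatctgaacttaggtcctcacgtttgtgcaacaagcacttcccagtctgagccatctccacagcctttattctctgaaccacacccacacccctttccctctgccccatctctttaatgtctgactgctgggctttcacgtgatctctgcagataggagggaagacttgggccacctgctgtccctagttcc

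Between 73590509 and 125724156 reads were counted on genes per library, and a gene with 3 counts stood at 0.0240 to 0.0407 CPM. CPM are counts scaled to a common library total after TMM normalization, and this floor covers counting error only. In this bulk tissue, summed levels were 4296 to 5181 CPM for 10 neuron markers, 5649 to 7152 CPM for 8 astrocyte markers and 13911 to 17345 CPM for 8 oligodendrocyte markers. By the numbers that its header gives them, the libraries form 2 series, which hold replicates 1 to 3 and replicates 4 to 6 of every group, and each comparison was therefore also read within each series. F1/proestrus replicate 5 stood apart from the rest, with a summed level of 512 CPM for 8 markers of sensory ganglion neurons against 3.82 to 7.17 CPM in the other 17 libraries. Values of Ly86, and sums whose overlap rests on this library, are given with and without it.

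Together, the 40 genes took 0.0495% to 0.0652% of all counts, and the lowest count of any of them in any library was 55, for Apbb1ip. All 40 therefore passed the filter on low counts in each comparison, and none was near the floor. Per kilobase (kb) of exon, Ctss, which encodes the lysosomal protease cathepsin S, had by far the highest mean level, 58.9 CPM per kb. It was followed by the adaptor Tyrobp (16.9 CPM per kb), the surface marker Tmem119 (14.8 CPM per kb) and the lysosomal membrane protein Laptm5 (11.1 CPM per kb). The selectin ligand Selplg, the adaptor Fcer1g and Lpcat2, an enzyme of phospholipid remodeling, came next with 10.3, 10.3 and 10.1 CPM per kb. In all, 30 of the 40 genes were above 1 CPM per kb. The lowest levels per kb were those of Apbb1ip (0.121), an adaptor of integrin activation, and Ptprc (0.155), the leukocyte phosphatase CD45. Among the kinases and signal transducers the highest was the membrane-binding protein Bin2 (2.88), followed by Inpp5d (1.71), the lipid phosphatase SHIP-1, and Syk (0.382), Btk (0.395) and Dock2 (0.455) lay below 1 CPM per kb. The defining purinergic and fractalkine receptors were well detected, with 6.85 CPM per kb for P2ry12, 3.12 for P2ry13 and 6.70 for Cx3cr1. These are levels in whole tissue, in which fewer microglia and less RNA per microglial cell cannot be told apart. Many of the 40 genes, and not only those outside the receptor and surface marker group, are also used by other macrophages or blood leukocytes.

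**Figure D1:**
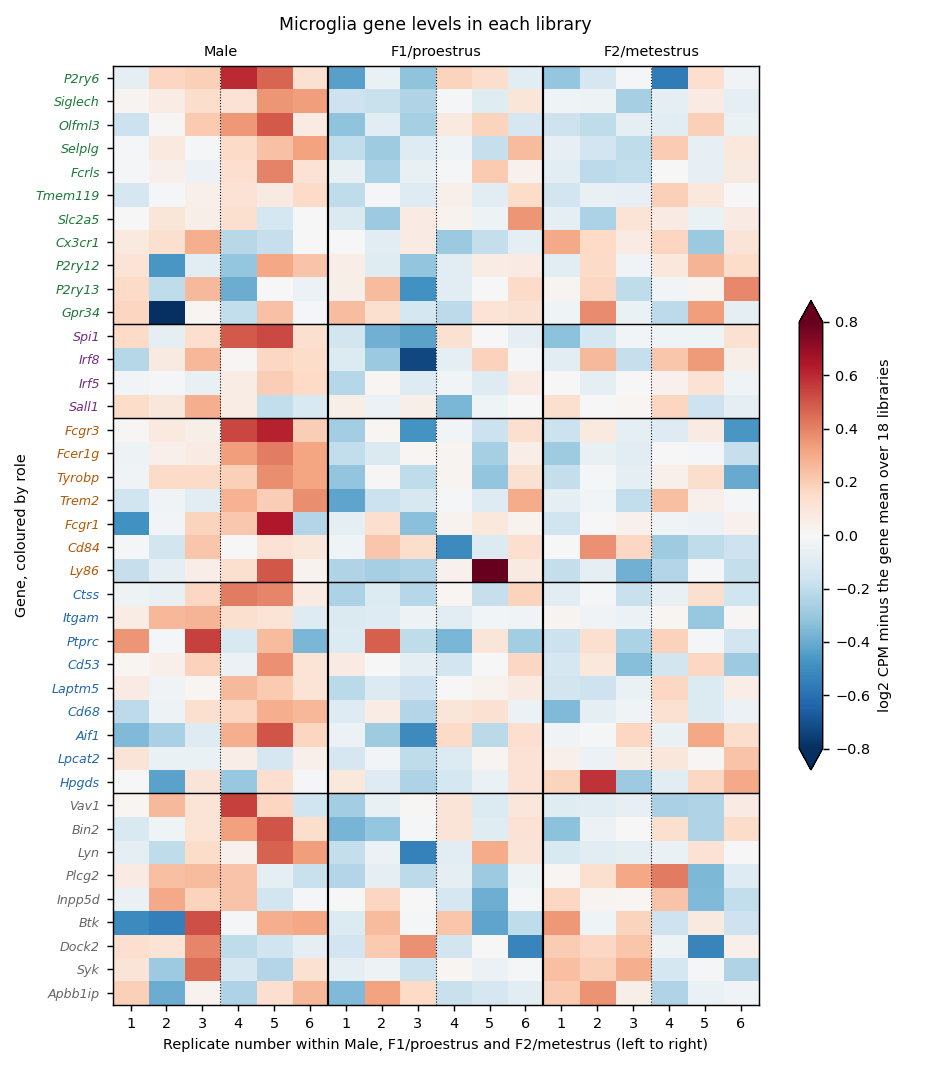
Heat map of the 40 genes (rows, colored and grouped by role) in the 18 libraries (columns, by group and replicate number), as log2 CPM minus the mean of the gene over all libraries. Dotted lines part replicates 1 to 3 from 4 to 6. Within each role, rows are ordered by the log2 fold change of males minus females, highest first, so redder upper rows in males follow from this order. Ly86 in F1/proestrus replicate 5 is the single darkest cell of its row.

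The comparison of males with all 12 females asks whether these genes differ between the sexes 2 h after formalin. In the quasi-likelihood test of edgeR, 0 of the 40 genes passed a false discovery rate (FDR) of 5%, where 49 of 24862 genes tested did so (0.197%). At an unadjusted p under 0.05 stood 14 of the 40, all with the higher level in males, beside 9.72% of all genes in either direction and 5.84% higher in males. Over the 40 genes, 34 had a positive log2 fold change (85%), compared with 49.6% of all genes tested. The median log2 fold change was 0.12, a median fold of 1.09, whereas that of all genes tested was -0.0013. The differences were small, between -0.13 and 0.38 on the log2 scale, with standard errors of 0.06 to 0.19. In no gene were all males separate from all females, which 0.125% of all genes tested achieved. The number called depended on the tool and on whether the library series entered the fit. DESeq2, run without the edgeR filter, called Fcer1g and Siglech, 2 of the 40, beside 166 of 45823 genes with a p-value (0.362%). In limma voom 0 were called. With the library series as a covariate, edgeR called 3, Fcer1g, Siglech and Spi1 (0.539% of all genes). DESeq2 with that covariate called these and Fcgr3, Ctss, Olfml3, Laptm5, Tyrobp, P2ry6 and Itgam. That made 10 in all, beside 729 of 45713 genes with a p-value (1.59%). Both DESeq2 shares are over all genes with a p-value, among them genes of low count that the edgeR fits left out. DESeq2 can leave such genes out of its own adjustment, and they could then not be called. The shares are therefore not directly comparable with the edgeR shares.

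**Figure D2:**
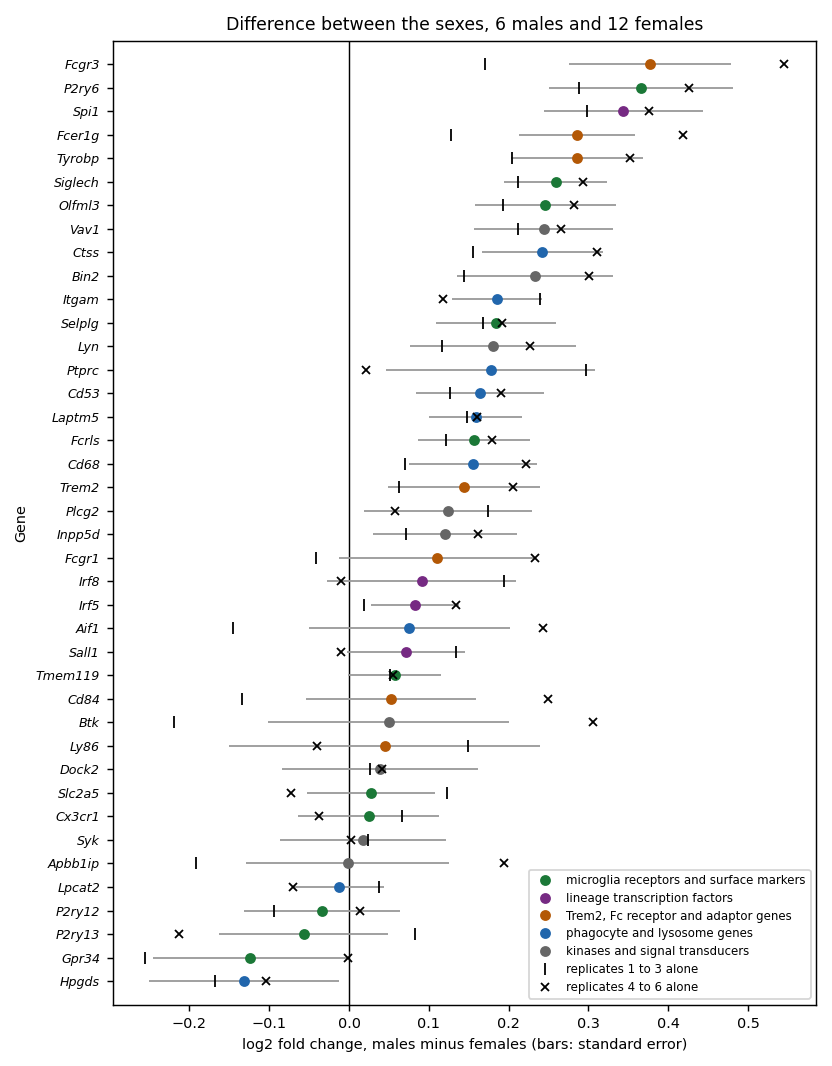
Log2 fold change of males minus females for each of the 40 genes (points, colored by role, with bars of 1 standard error from edgeR, 6 males and 12 females), with the values from replicates 1 to 3 alone (vertical ticks) and 4 to 6 alone (crosses). Values run from -0.13 for Hpgds to 0.38 for Fcgr3, and 34 of the 40 points lie to the right of 0.

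Among the 11 receptors and surface markers, 5 had an unadjusted p under 0.05, all higher in males, and the median log2 fold change was 0.06. The smallest p was that of Siglech, a sialic acid-binding lectin that pairs with Tyrobp. Its level was 12.6 to 15.8 CPM in males (median 13.5), 10.5 to 13.2 CPM in F1/proestrus (median 11.3) and 10.3 to 12.95 CPM in F2/metestrus females (median 11.9). All 6 males were above the median female, although the lower males overlapped the upper females, and the log2 fold change was 0.26 ± 0.06 (SE; edgeR, adjusted p = 0.144). Siglech was also the only one of the 40 genes in which all 3 males exceeded all 6 females within each series, as 0.261% of all genes did. With the library series as a covariate it passed the threshold (edgeR, adjusted p = 0.0227), as it did in DESeq2 (adjusted p = 0.0297).

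P2ry6, the receptor for UDP that triggers engulfment, had a larger but noisier difference. It stood at 2.60 to 4.14 CPM in males (median 3.10), 2.02 to 3.09 CPM in F1/proestrus (median 2.61) and 1.86 to 3.01 CPM in F2/metestrus females (median 2.58). Males of replicates 3, 4 and 5 stood above every female, while the lowest male was below the median female, and the log2 fold change was 0.37 ± 0.12 (SE; edgeR, adjusted p = 0.301). Olfml3, a secreted olfactomedin-like protein, ranged from 25.2 to 39.95 CPM in males (median 31.3) and from 22.7 to 32.4 CPM in all females (median 26.8), a log2 fold change of 0.25 ± 0.09 (SE). Selplg ranged from 43.2 to 54.6 CPM in males (median 47.4) and from 36.0 to 52.2 CPM in females (median 41.3), a log2 fold change of 0.18 ± 0.08 (SE). For Fcrls, a scavenger receptor of the Fc receptor-like family, the ranges were 15.2 to 20.7 CPM in males (median 16.6) and 13.2 to 18.2 CPM in females (median 15.1), a log2 fold change of 0.16 ± 0.07 (SE). In each of these 3 genes the male and female ranges overlapped, and the edgeR adjusted p was 0.366, 0.429 and 0.487, in the same order.

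The other 6 receptors and surface markers, P2ry12 and Cx3cr1 among them, had no unadjusted p under 0.05 in edgeR. P2ry12, the ADP receptor by which microglia extend processes toward injury, was at 12.5 to 21.4 CPM in males (median 17.4) and 13.9 to 20.9 CPM in females (median 17.96). Cx3cr1 was at 25.7 to 36.6 CPM in males (median 30.8) and 24.4 to 36.9 CPM in females (median 30.6). The male and female ranges of both genes nearly coincided. Their log2 fold changes were -0.03 ± 0.10 and 0.02 ± 0.09 (SE). Tmem119 differed by 0.06 ± 0.06, the second ADP receptor P2ry13 by -0.06 ± 0.11, the fructose transporter Slc2a5 by 0.03 ± 0.08, and Gpr34, the lysophosphatidylserine receptor, by -0.12 ± 0.12 on the log2 scale (all SE). The edgeR adjusted p of these 6 genes lay between 0.747 and 0.940, which does not show that their levels were equal in the sexes. Whether the sex difference of the 5 higher surface markers differed from that of P2ry12 and Cx3cr1 was not tested.

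All 4 lineage transcription factors had a positive difference, and Spi1 alone had an unadjusted p under 0.05. Spi1 stood at 3.04 to 4.62 CPM in males (median 3.54), 2.38 to 3.48 CPM in F1/proestrus (median 2.97) and 2.55 to 3.48 CPM in F2/metestrus females (median 3.12). Of the 6 males, 5 lay above the whole female range, and the log2 fold change was 0.34 ± 0.10 (SE; edgeR, adjusted p = 0.249). With the library series as a covariate, the edgeR adjusted p was 0.0496. For the other 3 the differences were smaller, with 0.09 ± 0.12 for Irf8, 0.08 ± 0.06 for Irf5 and 0.07 ± 0.07 for Sall1 (log2, SE). Sall1 ranged from 15.7 to 22.1 CPM in males and from 14.0 to 20.3 CPM in females, and Irf5 from 11.4 to 13.7 CPM and from 10.2 to 12.9 CPM. Of the exon bases of Irf5, 14.15% overlap exons of Tnpo3 on the opposite strand, whose reads cannot be told apart if the counting did not use strand.

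The 7 genes of the Trem2, Fc receptor and adaptor group all had a positive difference, with a median of 0.14, and 3 of them had an unadjusted p under 0.05. Fcer1g stood at 8.69 to 11.8 CPM in males (median 10.2), 7.42 to 9.27 CPM in F1/proestrus (median 8.63) and 7.31 to 8.92 CPM in F2/metestrus females (median 8.47). Males of replicates 4 to 6 stood above every female, while males of replicates 1 to 3 lay within or just above the upper part of the female range. The log2 fold change was 0.29 ± 0.07 (SE; edgeR, adjusted p = 0.151), and DESeq2 called the gene (adjusted p = 0.0371). The sex difference of Fcer1g was 0.13 in replicates 1 to 3 and 0.42 in replicates 4 to 6, and the test of the difference between the series gave an unadjusted p of 0.0289 in edgeR (adjusted p = 0.964). It was the only one of the 40 with an unadjusted p under 0.05 in this test, where 4.97% of all genes had one.

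Tyrobp, the partner adaptor, stood at 10.9 to 14.48 CPM in males (median 12.6), 8.97 to 12.2 CPM in F1/proestrus (median 10.5) and 8.46 to 12.3 CPM in F2/metestrus females (median 10.9). All 6 males were above the median female, and the log2 fold change was 0.29 ± 0.08 (SE; edgeR, adjusted p = 0.24). Fcgr3, the low-affinity receptor for IgG, stood at 14.97 to 22.7 CPM in males (median 16.3), 10.7 to 16.2 CPM in F1/proestrus (median 13.9) and 10.8 to 15.7 CPM in F2/metestrus females (median 14.0). Its log2 fold change of 0.38 ± 0.10 (SE; edgeR, adjusted p = 0.182) was the largest of the 40, and male replicates 4 and 5 were its highest libraries. Fcgr3 closely resembles Fcgr2b in sequence, so unique mapping may leave out part of its reads and its level is uncertain. Trem2, the lipid-sensing receptor that signals through Tyrobp, ranged from 7.59 to 11.0 CPM in males (median 8.99) and from 6.32 to 10.4 CPM in females (median 8.17). Its ranges overlapped almost fully, with a log2 fold change of 0.14 ± 0.10 (SE; edgeR, adjusted p = 0.6254). The high-affinity IgG receptor Fcgr1 and the adhesion receptor Cd84 differed by 0.11 ± 0.12 and 0.05 ± 0.11 (log2, SE), and both had a negative difference in replicates 1 to 3.

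Ly86 (MD-1), the partner of a Toll-like receptor homolog, was the exception in this group. It stood at 26.8 CPM in F1/proestrus replicate 5 and at 8.32 to 15.3 CPM in the other 17 libraries. The same library had the highest level of all 18 for 8 of 8 sensory ganglion neuron markers, and their part in the Ly86 value was not tested. The log2 fold change between the sexes was 0.04 ± 0.19 (SE) with this library and 0.24 without it (edgeR, adjusted p = 0.364).

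**Figure D3:**
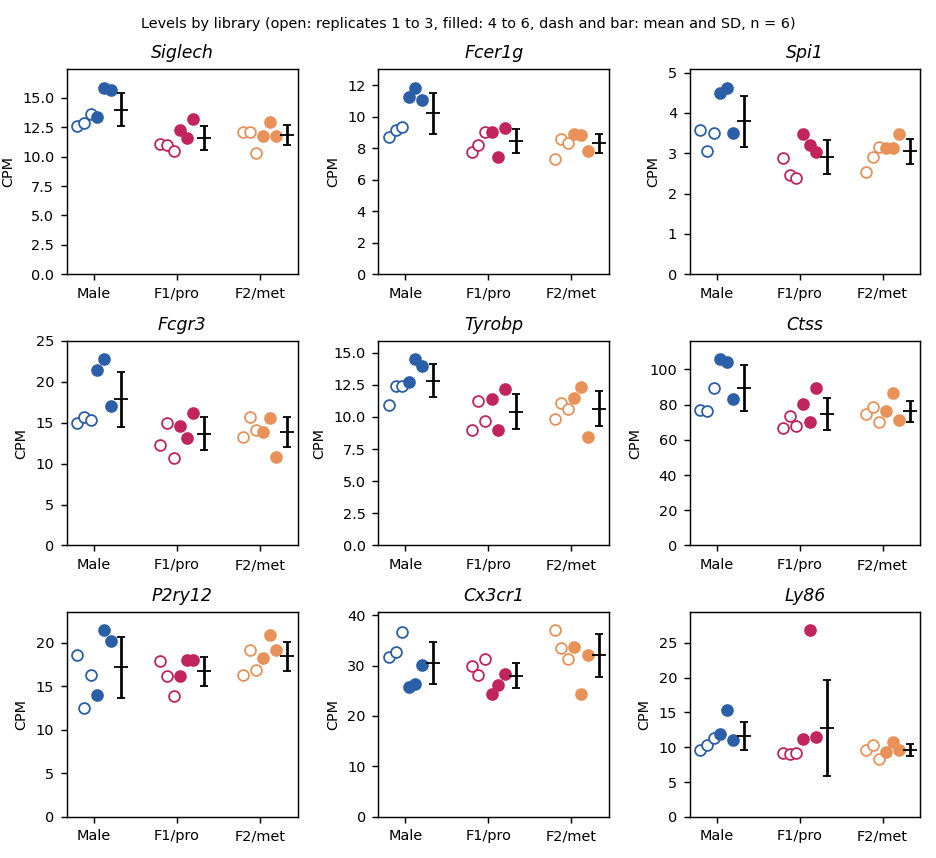
Level in CPM (from 0) of 9 of the genes in every library by group (F1/pro, F1/proestrus; F2/met, F2/metestrus), with replicates 1 to 3 as open and 4 to 6 as filled points and the mean with SD of 6 libraries in black. Males tend to lie above females in Siglech, Fcer1g, Spi1, Fcgr3, Tyrobp and Ctss, with overlap, whereas P2ry12 and Cx3cr1 overlap fully and Ly86 has a single high library at 26.8 CPM.

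Of the 9 phagocyte and lysosome genes, 3 had an unadjusted p under 0.05, Itgam, Ctss and Laptm5, all higher in males. Itgam, the CD11b integrin, stood at 17.97 to 23.3 CPM in males (median 20.9), 17.8 to 18.9 CPM in F1/proestrus (median 18.5) and 15.6 to 19.6 CPM in F2/metestrus females (median 19.1). The lowest male was among the lower females and the other 5 males were above the female range. The log2 fold change was 0.19 ± 0.06 (SE; edgeR, adjusted p = 0.278). The second row with the symbol Itgam, which GENCODE names Gm49368, shares 68.67% of the exon bases of Itgam, held 83.6% to 86.8% as many counts and had a log2 fold change of 0.19, so its reads are largely not separate from those of Itgam. Ctss stood at 76.2 to 106 CPM in males (median 86.1), 66.7 to 89.6 CPM in F1/proestrus (median 71.7) and 70.1 to 86.8 CPM in F2/metestrus females (median 75.5). All 6 males were above the median female, but only replicates 4 and 5 exceeded the highest female, with a log2 fold change of 0.24 ± 0.08 (SE; edgeR, adjusted p = 0.294). Laptm5 ranged from 41.3 to 50.4 CPM in males (median 44.7) and from 36.2 to 47.2 CPM in females (median 39.7), a log2 fold change of 0.16 ± 0.06 (SE; edgeR, adjusted p = 0.376).

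The lysosomal glycoprotein Cd68 and the tetraspanin Cd53 differed by 0.16 ± 0.08 each (SE; edgeR, unadjusted p = 0.0654 and 0.0535), and the phosphatase Ptprc by 0.18 ± 0.13 (log2, SE). Aif1, which encodes the actin-bundling protein IBA-1 widely used to stain microglia, ranged from 2.69 to 4.87 CPM in males (median 3.54) and from 2.42 to 4.28 CPM in females (median 3.40). Its ranges overlapped almost fully and its difference turned direction between the series, from -0.15 in replicates 1 to 3 to 0.24 in replicates 4 to 6. Lpcat2 was at 31.2 to 36.7 CPM in males and 29.7 to 40.1 CPM in females, a log2 fold change of -0.01 ± 0.06 (SE). Hpgds, the prostaglandin D synthase of blood-derived cells, had the most negative value, -0.13 ± 0.12 (log2, SE), and was lower in males in both series. Gpr34 also had a negative sign in both, but with -0.26 in replicates 1 to 3 and -0.0015, practically no difference, in replicates 4 to 6.

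Of the 9 kinases and signal transducers, 2 had an unadjusted p under 0.05. Vav1, which acts downstream of Syk, stood at 4.79 to 7.80 CPM in males (median 5.90), 4.41 to 5.75 CPM in F1/proestrus (median 5.25) and 4.46 to 5.59 CPM in F2/metestrus females (median 5.02). Bin2 stood at 6.604 to 10.2 CPM in males (median 7.85), 5.56 to 7.81 CPM in F1/proestrus (median 6.92) and 5.74 to 7.97 CPM in F2/metestrus females (median 7.09). In both genes the upper males stood above the female range and the lower males within it. The log2 fold changes were 0.24 ± 0.09 and 0.23 ± 0.10 (SE; edgeR, adjusted p = 0.363 and 0.439). Lyn ranged from 4.90 to 7.82 CPM in males (median 6.01) and from 3.88 to 6.93 CPM in females (median 5.40), a difference of 0.18 ± 0.10 (log2, SE), and Inpp5d from 11.6 to 15.9 CPM and from 9.82 to 15.1 CPM, a difference of 0.12 ± 0.09. Of the central kinases of the ITAM pathway, Syk differed by 0.02 ± 0.10 and Btk by 0.05 ± 0.15, while Plcg2 differed by 0.12 ± 0.11, Dock2 by 0.04 ± 0.12 and Apbb1ip by -0.0018 ± 0.13 (log2, SE). Of these, Btk and Apbb1ip had the lowest mean levels (1.24 and 0.894 CPM). The mean levels of Syk, Dock2 and Plcg2 were 3.58, 5.20 and 6.32 CPM. The part of the level in these differences was not tested. The difference between adaptors and kinases was not tested.

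Within the library series, the sex difference was positive in both series for 25 of the 40 genes and negative in both for 2. Of these 2, Gpr34 was near 0 in replicates 4 to 6 (-0.0015). Within replicates 1 to 3, all 3 males exceeded all 6 females in 6 genes, Siglech, Fcrls, Selplg, Itgam, Laptm5 and Vav1, where 2.53% of all genes did so. Within replicates 4 to 6 there were also 6, Siglech, Spi1, Tyrobp, Fcer1g, Fcgr3 and Cd68, where 2.55% of all genes did so. The 14 genes with an unadjusted p under 0.05 between the sexes were picked from these same values. In 13 of them, all but Itgam, the difference was smaller in replicates 1 to 3 than in 4 to 6. In edgeR the log2 difference was the higher one in replicates 4 to 6 for 26 of all 40 genes (65%), beside 48.2% of all genes tested. The test of the sex difference between the series called 0 of the 40 in edgeR, as it called 0 of all 24862 genes tested (0%).

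Summed over the 40 genes, the level was 548 to 644 CPM in males (median 594), 493 to 583 CPM in F1/proestrus (median 527) and 522 to 572 CPM in F2/metestrus females, so that the sexes overlapped. Within each series they did not: in replicates 1 to 3 the males were at 548 to 595 CPM and the females at 493 to 542 CPM, and in replicates 4 to 6 the males were at 594 to 644 CPM and the females at 534 to 583 CPM. Without Ly86 the same held, with 538 to 584 against 484 to 532 CPM and 583 to 628 against 516 to 572 CPM. A sum is led by the genes of high level, such as Ctss, Selplg and Laptm5. When each gene counted equally, as the mean of centered log2 CPM, males of replicates 1 to 3 (-0.05 to 0.14) overlapped the females (-0.17 to 0.03), whereas males of replicates 4 to 6 (0.09 to 0.22) lay above them (-0.05 to 0.04). By role, the receptors, the transcription factors and the phagocyte genes were separate in replicates 1 to 3 and overlapped in replicates 4 to 6, and the kinases and signal transducers overlapped in both. The Trem2, Fc receptor and adaptor group overlapped in replicates 1 to 3, and in replicates 4 to 6 its overlap rested on F1/proestrus replicate 5, since the males were at 68.95 to 80.2 CPM and the females at 49.6 to 69.04 CPM with this library and at 49.6 to 64.8 CPM without it.

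Markers of other cells were read in the same comparison. Of 10 neutrophil markers, 9 were tested and all 9 had an unadjusted p under 0.05, higher in males, with a median log2 fold change of 1.37, and the granule enzyme Mpo was called (1.37 ± 0.25, SE; edgeR, adjusted p = 0.0161). Their summed level was 6.12 to 33.8 CPM in males and 2.14 to 11.8 CPM in females. Of 8 Schwann cell markers, 7 had an unadjusted p under 0.05, higher in males, with a median of 0.64, and Ncmap was called (0.67 ± 0.11, SE; edgeR, adjusted p = 0.00654). Their sum was 1867 to 4567 CPM in males and 1256 to 2635 CPM in females. The highest female was F1/proestrus replicate 5, and without it the females reached 1907 CPM. DESeq2 called 3 neutrophil and 3 Schwann cell markers (0.362% of all genes with a p-value). With the series covariate it called 4 and 5 (1.59%). No marker of either list was at 0 in all libraries. Of 10 markers of border-associated macrophages 3, and of 7 tested monocyte markers 1, had an unadjusted p under 0.05, and edgeR and DESeq2 called 0. Among the 5 tested lymphocyte, 6 red blood cell, 10 neuron, 8 astrocyte, 8 oligodendrocyte and 8 endothelial markers, edgeR called 0, and 0, 1, 2, 1, 1 and 1 had an unadjusted p under 0.05. DESeq2 with the series covariate called 1 neuron and 1 endothelial marker. The part of blood or nerve root cells in the values of the 40 genes was not tested.

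**Figure D4:**
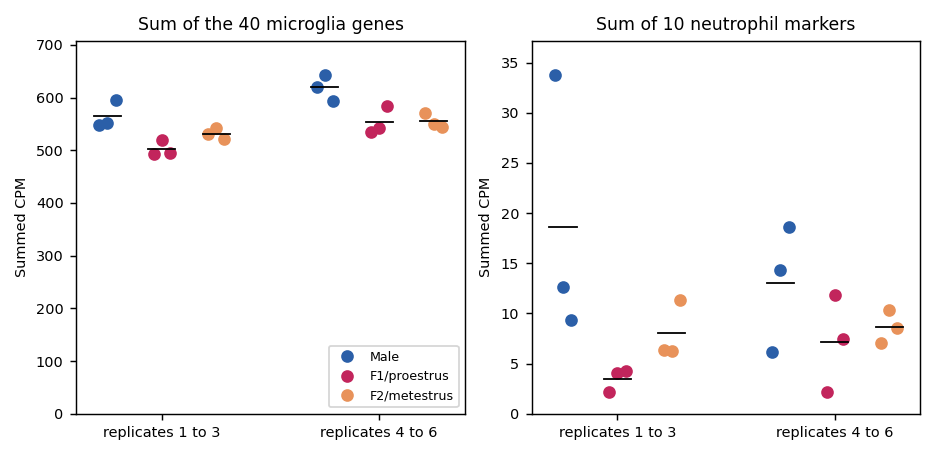
Summed CPM (axes from 0) of the 40 microglia genes (left) and of 10 neutrophil markers (right) in each library by group and library series, with lines at the mean of 3 libraries. On the left the males of each series lie above the females of that series, at 548 to 595 and 594 to 644 CPM, and on the right male replicate 1 is highest at 33.8 CPM.

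The rest of the microglial program was read from 25 other microglia genes. In edgeR 0 were called, 12 had an unadjusted p under 0.05, all higher in males, and the median log2 fold change was 0.11. Csf1r, the receptor that keeps microglia alive, differed by 0.20 ± 0.04 (SE; edgeR, adjusted p = 0.0548), and the complement genes C1qb and C1qc by 0.34 ± 0.08 (adjusted p = 0.0942) and 0.32 ± 0.08 (adjusted p = 0.151). With the library series as a covariate edgeR called 4 of the 25 (0.539% of all genes). These were Csf1r (adjusted p = 0.0184), C1qb (adjusted p = 0.0062), C1qc (adjusted p = 0.00289) and C1qa (adjusted p = 0.00244). DESeq2 without the covariate called 3, Csf1r (adjusted p = 0.00569), C1qb (adjusted p = 0.0182) and C1qc (adjusted p = 0.0498), beside 0.362% of all genes with a p-value. With the covariate DESeq2 called 7 of the 25, beside 1.59%. Of 20 other genes of the ITAM pathway, edgeR called 0, DESeq2 1 and DESeq2 with the series covariate 3, and in edgeR 3 had an unadjusted p under 0.05 with the higher level in males and 1 with the lower. Of 17 genes of activated microglia, 15 were tested. In edgeR 0 were called and 3 had an unadjusted p under 0.05, 1 higher and 2 lower in males, among them the growth factor Csf1 (-0.18 ± 0.06, log2, SE; adjusted p = 0.292), and DESeq2 with the series covariate called 1 of the 15.

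The comparison of the female groups asks whether the genes follow behavior and cycle stage. In edgeR 0 of the 40 passed the threshold and 0 had an unadjusted p under 0.05, where 0 of 24042 genes tested were called (0%) and 596 had an unadjusted p under 0.05 (2.48%). DESeq2, again without the edgeR filter, called 2 of 44127 genes with a p-value (0.00453%) and 0 of the 40. In limma voom 0 of the 40 were also called. At an unadjusted p under 0.05, DESeq2 had 2 of the 40 (1.97% of all genes) and limma voom 0. Log2 fold changes of F2/metestrus minus F1/proestrus ran from -0.42 to 0.25, with a median of 0.03. The smallest p was that of Cx3cr1, at 24.4 to 31.3 CPM in F1/proestrus (median 28.2) and 24.4 to 36.9 CPM in F2/metestrus (median 32.8). The ranges overlapped, and the log2 fold change was 0.19 ± 0.09 (SE; edgeR, unadjusted p = 0.0513). Plcg2 (0.24 ± 0.12) and Irf8 (0.25 ± 0.14) came next among the positive values (log2, SE), with edgeR unadjusted p of 0.0537 and 0.0833. The most negative value, -0.42 ± 0.23 for Ly86, rested on F1/proestrus replicate 5 and was -0.06 without it. Standard errors of the 40 genes lay between 0.06 and 0.23, so changes of the size seen here could not be told from the spread between females.

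More of the 40 genes were called between the library series than between the groups. With the 3 groups as a factor, edgeR called 13 of the 40 between replicates 4 to 6 and 1 to 3 (32.5%). Of 24038 genes tested, 6637 were called (27.6%). The shares were close over both directions together, but not by direction. Of the 40, 10 were higher and 3 lower, whereas more of all genes were lower (15.2%) than higher (12.4%). This contrast was not tested. Higher in replicates 4 to 6 (12.4% of all genes) were Trem2, Laptm5, Selplg, Fcrls, Tmem119, Spi1, Olfml3, Aif1, Bin2 and Lyn, 10 in all. Trem2 stood at 6.32 to 8.32 CPM in replicates 1 to 3 (median 7.74) and at 7.90 to 11.0 CPM in replicates 4 to 6 (median 9.68). The series overlapped little, and the log2 fold change was 0.27 ± 0.06 (SE; edgeR, adjusted p = 0.00272). Laptm5 rose from 39.6 ± 2.62 to 44.8 ± 3.51 CPM (mean ± SD, n = 9 per series; edgeR, adjusted p = 0.00319), and Selplg from 40.8 ± 3.22 to 47.4 ± 5.42 CPM (edgeR, adjusted p = 0.00667). The other 7 had log2 fold changes of 0.14 (Tmem119) to 0.30 (Aif1). Lower (15.2% of all genes) were Dock2, Cx3cr1 and Sall1. Dock2, a Rac exchange factor, stood at 4.61 to 6.71 CPM in replicates 1 to 3 (median 5.89) and 3.55 to 5.27 CPM in replicates 4 to 6 (median 4.62), a log2 fold change of -0.38 ± 0.09 (SE; edgeR, adjusted p = 0.00257). Cx3cr1 fell from 32.4 ± 2.91 to 27.9 ± 3.36 CPM (mean ± SD; edgeR, adjusted p = 0.00495). The call of Sall1 (-0.18 ± 0.06, log2, SE; edgeR, adjusted p = 0.0321) was lost in DESeq2 (adjusted p = 0.0522), with other size factors (RLE, adjusted p = 0.0611), without a filter (adjusted p = 0.0574) and when any of 13 of the 18 libraries was left out. In no gene were the series fully separate, which 4.22% of all genes tested were.

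Of the 3 genes called lower in replicates 4 to 6, Dock2 and Cx3cr1 are the longest of the 40. From start to end, Dock2 spans 557 kb, Cx3cr1 168 kb and Sall1 16.9 kb in the annotation, and the 10 higher genes span 5.08 to 135 kb with a median of 14.9 kb. Across the 40 genes, which are not independent replicates and share all 18 libraries, Spearman's rho of the log2 fold change with this span was -0.42, and with exon length -0.44. Over 24027 genes tested the values were -0.17 and -0.26. What set the series apart is not given in the sources used here, and its part in these values was not tested.

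**Figure D5:**
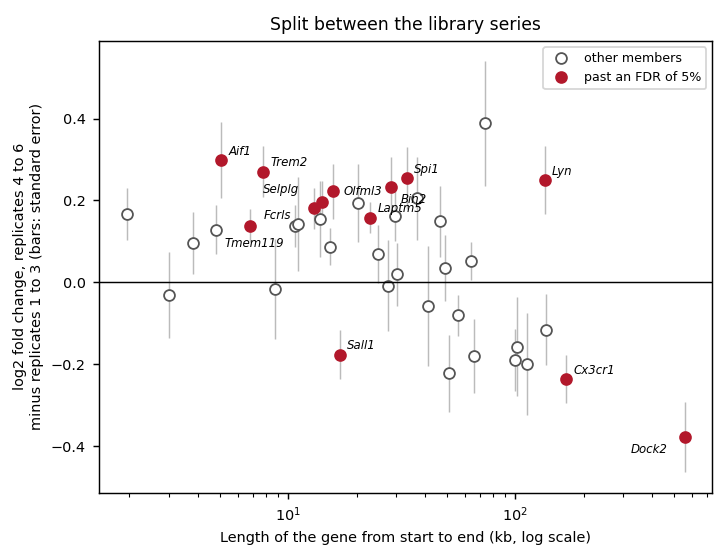
Log2 fold change of replicates 4 to 6 minus 1 to 3 (edgeR, bars of 1 standard error, 9 libraries per series) against the length of each of the 40 genes from start to end in kb on a log scale. Filled points passed an FDR of 5%, of which the 10 higher ones lie at 5.08 to 135 kb and the lowest, Dock2, at 557 kb.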

How the data were processed

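The authors deposited raw read counts per Ensembl gene for 18 DHSC libraries, without normalization. The methods describe mapping with Subread, which kept reads of a single position in mm10, and counting per exon with featureCounts, and the submitters' processing notes name bcl2fastq 2.20.0.422, Subread 2.0.3, featureCounts and DESeq2 1.3.0. Whether strand was used in counting is not given in the sources used here. The methods name the TruSeq kit for the libraries, whereas the labels describe SMART-Seq amplification with Nextera XT tagmentation. A second table that the authors deposited holds their own comparison (mean normalized signal, log2 fold change, standard error, Wald statistic, p-values), and only its other column, the gene symbols, was used, to name the Ensembl IDs.

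The 40 genes, their 5 role groups, the 13 lists of other genes, the motifs and the tests were chosen with earlier results of these data known. The 8 sensory ganglion markers were listed after the values had been seen. Genes were filtered with filterByExpr of edgeR 4.0.16 (minimum count of 10, minimum total of 15), scaled by TMM and compared by the quasi-likelihood test in R 4.3.3, with Benjamini-Hochberg adjustment over all genes tested and an FDR of 5%. DESeq2, the tool of the methods, served as an alternative (1.42.0) without that filter, as did limma voom (3.58.1) with it. DESeq2 kept its default filter on the mean count, which can leave genes of low count without an adjusted p. Males were compared with the 12 females in a fit of all 18 libraries, F2/metestrus with F1/proestrus in a fit without the males, and the library series in a fit with the 3 groups as a factor. The scripts were tested on simulated data. Each library is taken as a separate animal, as the methods describe biological replicates.

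Values are given for every gene past the threshold in a comparison, and in each role group for the 2 genes of the highest level per exon length and the 2 of the smallest p between the sexes. Other genes are named beyond that rule to account for all 40. Exon lengths and positions come from GENCODE vM21 on GRCm38. Alternatives were other size factors, no or a stricter filter, robust dispersions, a block for the replicate number, the series as a covariate or each series alone, the 3 groups in 1 fit, and leaving out each library. The test of the sex difference between the series, the sums within a series, the sums without Ly86 or without F1/proestrus replicate 5 and the mean log2 level were chosen after seeing the data. The values of a single gene of the ITAM pathway list are not reported here.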

Additional observations from a re-analysis of the deposited data

Results flagged for a closer look

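In each group of 6 libraries, the gap between the highest or lowest library and its nearest neighbor was compared with the range of the group. Over 120 groups (40 genes in 3 groups of animals) the gap exceeded Dixon's critical value in 5, where chance alone gives about 6. Ly86 was highest in F1/proestrus replicate 5 with 26.8 CPM, against 9.04 to 11.4 CPM in the other 5 libraries of that group. Sall1 was lowest in F1/proestrus replicate 4 with 14.0 CPM, against 17.5 to 18.6 CPM in the others. In F2/metestrus replicate 5, Itgam was lowest with 15.6 CPM, against 18.6 to 19.6 CPM, and Olfml3 was highest with 32.4 CPM, against 24.6 to 27.4 CPM. Fcrls was highest in male replicate 5 with 20.7 CPM, against 15.2 to 17.2 CPM in the other males. The cause of these values was not tested.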

How the results depend on the processing

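Between the sexes, 0 of the 40 genes were called by edgeR, and 2 were called by DESeq2, 3 by edgeR with a covariate for the library series and 10 by DESeq2 with this covariate. Leaving out each library in turn, edgeR called 0 to 0, with 10 to 17 genes at an unadjusted p under 0.05. The 17 were reached without F1/proestrus replicate 5. The replicate numbers were not taken as a pairing in the main fits. Over 18 pairs of same-numbered libraries the correlation of deviations ran from -0.10 to 0.23 and 9 exceeded 0.1. Of 18 libraries, 7 correlated best with their own number. These deviations still held the split between the series, so they cannot show whether the numbers pair the samples. With the replicate number as a block, 2 genes were called, Olfml3 and Siglech (0.595% of all genes), with no gene of the 40 called between the female groups. Between the female groups, the number at an unadjusted p under 0.05, 0 in the main fit, was 1 with other size factors, robust dispersions, replicates 4 to 6 alone or the 3 groups in 1 fit, 2 without a filter, in DESeq2 or with the series covariate, and 3 with the replicate block, in DESeq2 with the series covariate or in replicates 1 to 3 alone. It was 0 to 2 when libraries were left out.

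Differences near 0 between the sexes changed sign. In replicates 4 to 6 alone, log2 fold changes were 0.014 for P2ry12, -0.037 for Cx3cr1, -0.072 for Slc2a5, -0.010 for Sall1, -0.010 for Irf8, -0.041 for Ly86 and 0.19 for Apbb1ip. In replicates 1 to 3 alone they were 0.082 for P2ry13, -0.041 for Fcgr1, -0.13 for Cd84, -0.15 for Aif1, 0.038 for Lpcat2 and -0.22 for Btk. Against F1/proestrus alone they were 0.039 for P2ry12, -0.15 for Ly86, 0.046 for Lpcat2 and 0.045 for Apbb1ip, and against F2/metestrus alone -0.068 for Cx3cr1, -0.032 for Irf8, -0.022 for Aif1 and -0.044 for Syk. Apbb1ip was at 0.0018 in limma voom, 0.0032 with the replicate block and 0.0054 with the library series as a covariate. When libraries were left out, the ranges that crossed 0 were -0.12 to 0.037 for P2ry12, -0.043 to 0.062 for Cx3cr1, -0.0026 to 0.056 for Slc2a5, -0.040 to 0.19 for Fcgr1, -0.062 to 0.24 for Ly86, -0.039 to 0.14 for Aif1, -0.046 to 0.0015 for Lpcat2, -0.090 to 0.066 for Syk, -0.066 to 0.14 for Btk, -0.048 to 0.076 for Dock2 and -0.067 to 0.063 for Apbb1ip. Between the female groups Ly86 was at 0.032 in replicates 1 to 3 alone, and P2ry13 ran from -0.0078 to 0.13 with libraries left out. None of these was called under any setting, and the cause was not tested.

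Between the library series, 13 to 18 genes were called when libraries were left out and 13 to 17 under the other settings. The 18 were reached without F1/proestrus replicate 5 and also without F2/metestrus replicate 4. Ly86 was called in 7 of 18 fits with a library left out, among them that without F1/proestrus replicate 5 (adjusted p = 0.0243). Spi1 lost its call without a filter (adjusted p = 0.0560). Counting error weighs most on the genes with the fewest counts, such as Apbb1ip (lowest count 55), and its part in the spread between libraries was not tested.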
